A study of Homo sapiens with 16 samples.

Results

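The PRH knockdown clones are lines of CCLP1, an established human bile duct carcinoma line of intrahepatic origin, that carry a short hairpin RNA (shRNA) against HHEX, the gene of the transcription factor PRH. They were set against clones with a scrambled shRNA that targets no gene. The members are 4 of the 16 libraries of the series, 2 for each shRNA, and each library is 1 independent clone (clone 1 and clone 2). Polyadenylated RNA was sequenced, and all 4 clones are labelled with the same growth medium. Whether the 2 clones of a group carry the same hairpin is not stated. The other 12 libraries are used here only to place the genes of the clones: myc-PRH or empty adenovirus in CCLP1 cells with no shRNA listed (2 infections each), and the same viruses in a NOTCH3 shRNA line and a control shRNA line (2 infections for each combination). The question of the comparison is which genes move when PRH is lowered in this tumour line, in a study of a feedback between PRH and the receptor NOTCH3.

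PRH (proline-rich homeodomain protein, also called HHEX) is a homeodomain transcription factor needed for liver and bile duct development and for blood cell formation. It binds DNA and mostly represses genes, in part with Groucho/TLE co-repressors, and its loss of activity has been linked to cell growth and migration in several tumours. Notch receptors are cleaved upon ligand binding, and their intracellular part turns on targets such as the HES and HEY repressors, which guide bile duct fate in the liver.

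The libraries held 31136366 and 42579760 reads in genes in PRH shRNA clones 1 and 2, and 65190592 and 48098850 in control clones 1 and 2. Values are normalised counts, meaning reads divided by 1 size factor per library. A total of 14511 genes had at least 10 normalised counts in at least 2 of the 4 libraries and were tested. The PRH shRNA clones stood apart from each other: 1128 genes differed by at least 4-fold between them, 845 of them higher in clone 2 and 283 higher in clone 1. Between the control clones 589 genes differed by as much. Each result is therefore given clone by clone. Each library is 1 clone. With 2 clones per group, p-values measure the spread between these clones of 1 line. When 1 PRH shRNA clone is set alone against the controls, the spread comes from the control pair together with the trend over all genes. Clone 1 minus clone 2 differences correlated across genes between the 2 groups at 0.58, and what the clone numbers share is not given. With bulk RNA a smaller share of cells that express a gene and less RNA per cell cannot be told apart.

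HHEX itself had 314 and 326 normalised counts in the PRH shRNA clones, against 580 and 554 in the control clones. Both PRH shRNA clones lay below both control clones, by 0.82 ± 0.49 on the log2 scale (SE), and the 2 PRH shRNA clones were nearly equal. The difference did not pass the limma test over all genes (unadjusted p = 0.15, adjusted p = 0.9999). As reads scaled to a common library total (RPM) HHEX stood at 6.97 and 7.73 in the PRH shRNA clones and at 12.2 and 12.1 in the control clones. The empty-virus libraries labelled NOTCH3 shRNA had 3.48 and 3.23, against 10.3 and 12.1 with the control shRNA and the empty virus. There HHEX was called lower with the NOTCH3 shRNA (log2 difference -1.74, limma, adjusted p = 0.000126). NOTCH3 had 86.8 and 729 normalised counts in PRH shRNA clones 1 and 2, against 672 and 2065 in control clones 1 and 2. PRH shRNA clone 1 lay below both control clones, while clone 2 lay between them. With each PRH shRNA clone set alone against the control clones, NOTCH3 differed by -3.75 ± 0.90 in clone 1 (log2, SE) and by -0.69 ± 0.90 in clone 2. Each of these arms is 1 library, and the SE comes from the control pair together with the trend over all genes. It hardly followed a gene's own control clones: GREM1, with 14714 and 14518 in the control clones, had an SE of 0.86. The SE therefore does not measure the spread of NOTCH3 between its own 2 control clones.

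With both clones of each group in the fit, limma called 0 of 14511 genes (0.0%) at an adjusted p below 0.05, and 959 genes (6.61%) had an unadjusted p below 0.05. On the recovered whole reads edgeR also called 0 genes (1024 unadjusted) and DESeq2 called 703, of which 601 were higher and 102 lower. With 1 library dropped limma called 607 genes (PRH shRNA clone 1 dropped), 161 (PRH shRNA clone 2), 372 (control clone 1) or 51 (control clone 2). The smallest p-values belonged to POSTN, CALB2 and ROBO2, with adjusted p-values of 0.096, 0.096 and 0.116. Genes whose libraries did not overlap numbered 1781 higher (12.3%) and 1702 lower (11.7%). A stricter description was used for the rest: a gene was counted as set apart when its libraries differed by at least 4-fold from every library on the other side, on log2(value + 1), with at least 50 normalised counts in the highest library. By this rule 368 genes (2.54%) were higher and 79 (0.544%) lower in both PRH shRNA clones than in both control clones.

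The 79 genes lower in both PRH shRNA clones included matrix, adhesion and neuronal genes that were abundant in both control clones and near 0 in the PRH shRNA clones. Of 7 neural and neuroendocrine genes tested, 0 were higher and 3 lower in both clones, against 2.54% and 0.544% of all genes tested. The list's median log2 differences were -1.07 in clone 1 and -1.24 in clone 2. POSTN (periostin, a secreted matrix protein) had 1.45 and 0 normalised counts in PRH shRNA clones 1 and 2, against 4435 and 3536 in the control clones. CALB2 (calretinin, a calcium-binding protein of neurons and mesothelium) had 10.1 and 28.7 in the PRH shRNA clones, against 11355 and 20933 in the control clones. ROBO2 (a receptor for the guidance cue SLIT) had 2.89 and 0, against 2202 and 2987 in the control clones. The groups were separated by more than 2 orders of magnitude on the count scale for all 3, and each was called in both clone-wise fits described further on. TMEFF2, a membrane protein with follistatin domains, had 1.45 and 25.7 normalised counts in the PRH shRNA clones, against 6212 and 4878 in the control clones. FMN2, a formin that nucleates actin, had 4.34 and 1.98, against 7154 and 2019 in the control clones.

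Among the lower genes were also cadherins and neuronal genes. CDH12, a cadherin of the brain, had 0 and 1.98 normalised counts in the PRH shRNA clones, against 1219 and 1238 in the control clones. CDH2 (N-cadherin, a hallmark of mesenchymal and neural cells) had 1.45 and 44.6 in the PRH shRNA clones, against 2757 and 1979 in the control clones. NCAM1, a neural cell adhesion molecule, had 17.4 and 1.98, against 941 and 1704 in the control clones. In all 3 every PRH shRNA library lay far under every control library. SNAP25, which drives synaptic vesicle fusion, had 2.89 and 1.98 in the PRH shRNA clones, against 428 and 136 in the control clones, and UCHL1, a neuronal ubiquitin hydrolase, had 2.89 and 48.5, against 345 and 668 in the control clones. DCN (decorin, a matrix proteoglycan) had 0 and 12.9, against 254 and 404 in the control clones. Of the 79 genes, 14 had no read in either PRH shRNA clone. Among these were FREM2, a basement membrane protein, at least 158-fold lower than its control mean, PLSCR5 (at least 65.9-fold lower), the synaptic membrane protein SLITRK1 (at least 62.6-fold) and EYA4, a transcriptional co-activator (at least 35.6-fold). These bounds set the absent group to a floor of 3 counts per library, averaged over the group, and cover counting error only.

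The transcription factors set apart downward included HEY2, a Notch-induced repressor, and HOXC10. HEY2 had 2.89 and 3.96 normalised counts in the PRH shRNA clones, against 498 and 577 in the control clones, with no overlap and little spread inside either group. HOXC10 had 21.7 and 54.5, against 733 and 726 in the control clones. NR5A2, a nuclear receptor of liver and pancreas, had no read in either PRH shRNA clone, against 27.1 and 51.5 in the control clones. CCND2 (cyclin D2, which starts the G1 phase) had 95.5 and 32.7, against 592 and 851 in the control clones. The 250 bases before and 50 after the annotated start (RefSeq, GRCh38.p14) are printed for POSTN, one of the 3 genes with the smallest p, and for HEY2, the Notch target with the largest gap, since both were near 0 with the PRH shRNA. POSTN lies at chr13:37598719-37599018 on the minus strand and HEY2 at chr6:125749382-125749681 on the plus strand, and capitals mark ATTAA, a homeodomain-type core, and TGGGAA, the core bound by the Notch effector RBPJ, each searched on both strands (so also as TTAAT and TTCCCA).
POSTN: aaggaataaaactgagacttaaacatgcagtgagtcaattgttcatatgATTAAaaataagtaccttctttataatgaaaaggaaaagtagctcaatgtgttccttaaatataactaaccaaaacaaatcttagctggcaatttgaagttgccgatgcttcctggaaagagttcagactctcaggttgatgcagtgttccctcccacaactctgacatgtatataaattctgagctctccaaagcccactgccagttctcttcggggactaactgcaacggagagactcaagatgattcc
HEY2: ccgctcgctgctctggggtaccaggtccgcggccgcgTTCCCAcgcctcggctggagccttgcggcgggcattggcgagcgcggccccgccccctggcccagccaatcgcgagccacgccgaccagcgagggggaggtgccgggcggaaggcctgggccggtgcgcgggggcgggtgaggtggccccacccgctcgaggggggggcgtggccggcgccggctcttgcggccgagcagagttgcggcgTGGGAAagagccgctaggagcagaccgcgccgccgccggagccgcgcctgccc
The POSTN window held 1 ATTAA, 0 TGGGAA and 3 CpG pairs, and the HEY2 window 0 ATTAA, 2 TGGGAA and 43 CpG pairs. Of 27305 promoter windows of the same length, 24.8% held ATTAA and 24.3% held TGGGAA, and the median window had 14 CpG pairs. A match is a description of the letters and not a binding site. Promoter windows were matched for 58.2% of the 79 lower and 72.0% of the 368 higher genes, which is below the 80% needed, so no promoter feature is compared over these sets.

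The 368 genes higher in both PRH shRNA clones were mainly higher still in clone 2. Their median level was 120.1 and 423 normalised counts in PRH shRNA clones 1 and 2, against 18.7 and 9.07 in control clones 1 and 2. Clone 2 exceeded clone 1 in 356 of the 368 genes, by at least 4-fold in 138, while clone 1 exceeded clone 2 by as much in 3 genes, all of them chemokines. These were IL8, CXCL6 and PF4V1, which recruit neutrophils or act on the vessel wall. IL8 (now named CXCL8) had 6554 and 701 normalised counts in PRH shRNA clones 1 and 2, against 13.9 and 19.1 in the control clones. CXCL6 had 4834 and 96.0, against 3.66 and 2.86 in the control clones, and PF4V1 had 209.8 and 19.8, against 0 in both control clones. Clone 1 carried by far the highest level of each. Clone 2 minus clone 1 came to -5.64 on the log2 scale for CXCL6, from 1 library per arm. Of the 19 chemokine and inflammatory genes tested (30 listed), 5 were higher and 0 lower in both PRH shRNA clones by the 4-fold rule. Of all genes tested, 2.54% were higher and 0.544% lower. CXCL1, CXCL3 and CXCL6 passed the filter through the PRH shRNA clones alone, so the count leans toward higher genes. Without overlap, 7 lay higher and 1 lower, against 12.3% and 11.7% of all genes tested. The list's median log2 difference was -0.49 in clone 1 and 0.22 in clone 2, against -0.01 and -0.05 over all genes tested. CXCL3 had 356 and 96.0, against 8.05 and 3.82 in the control clones, and CXCL1 had 55.0 and 36.6, against 1.46 and 0 in the control clones. CXCL1, CXCL3 and IL8 encode ligands of the receptor CXCR2. CXCL1 with CXCL3 and PF4 with PF4V1 are close copies that share sequence, and how reads were split between them is not stated.

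The promoter windows of the chemokine genes IL8 at chr4:73740319-73740618 and CXCL6 at chr4:73836428-73836727, both on the plus strand, are printed because these genes lie on the same chromosome and were high in the same clone.
IL8: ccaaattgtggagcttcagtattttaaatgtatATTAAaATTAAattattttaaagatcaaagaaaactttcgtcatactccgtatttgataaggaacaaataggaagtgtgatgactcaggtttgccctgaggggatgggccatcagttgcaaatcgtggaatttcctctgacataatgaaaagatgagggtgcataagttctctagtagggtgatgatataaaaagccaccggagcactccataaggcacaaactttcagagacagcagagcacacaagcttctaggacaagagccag
CXCL6: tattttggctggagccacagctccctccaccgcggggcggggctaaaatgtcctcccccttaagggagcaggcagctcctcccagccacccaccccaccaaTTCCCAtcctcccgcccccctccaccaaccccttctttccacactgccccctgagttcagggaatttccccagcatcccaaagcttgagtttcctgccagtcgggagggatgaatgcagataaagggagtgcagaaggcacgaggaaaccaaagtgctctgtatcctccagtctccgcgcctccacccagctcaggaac
The IL8 window held 2 ATTAA, 0 TGGGAA and 4 CpG pairs, and the CXCL6 window held 0 ATTAA, 1 TGGGAA and 8 CpG pairs. The matching capitals have the same meaning as for POSTN and HEY2.

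Epithelial genes were among the higher genes. Of all genes tested, 2.54% were higher in both PRH shRNA clones by the 4-fold rule, and 12.3% lay higher without overlap. Of 38 epithelial junction and epithelial regulator genes tested, 15 were higher and 0 lower in both PRH shRNA clones, and 31 had no overlap between the groups in the higher direction. Their median log2 difference from the control clones was 1.97 in PRH shRNA clone 1 and 4.47 in clone 2. CDH1 (E-cadherin, the main cadherin of epithelial junctions) had 1799.7 and 9611 normalised counts in PRH shRNA clones 1 and 2, against 331 and 264 in the control clones. GRHL2, a transcription factor that keeps epithelial genes on, had 344 and 1364, against 52.7 and 23.9 in the control clones. ELF3, an epithelial ETS factor, had 1137 and 4081, against 146 and 111 in the control clones. RAB25, a GTPase of apical recycling, had 239 and 1445, against 32.2 and 22.9 in the control clones. In each of these the order was clone 2, then clone 1, then both control clones. SPINT1, a protease inhibitor of epithelial surfaces, had 483 and 6590, against 104 and 136 in the control clones, and OVOL1, an epithelial repressor, had 14.5 and 288, against 4.39 and 10.5 in the control clones.

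Keratins, the intermediate filament proteins of epithelia, followed the same order. Of 9 tested (18 listed), 5 were higher and 0 lower in both PRH shRNA clones, against 2.54% and 0.544% of all genes tested. The list's medians were 2.32 in clone 1 and 4.20 in clone 2 on the log2 scale. KRT7 passed the filter through the PRH shRNA clones alone, so count and medians lean toward higher genes. KRT8 had 10023 and 63903 normalised counts in PRH shRNA clones 1 and 2, against 1921 and 1808 in the control clones. KRT18, its partner in simple epithelia, had 3751 and 28416, against 622 and 910.35 in the control clones. KRT19, a biliary keratin, had 3715 and 16365, against 654 and 437 in the control clones. The groups did not overlap, and clone 2 lay several times above clone 1 for each of the 3. KRT8 and KRT18 have many pseudogene copies, and IFITM3 a close paralog, so reads may have been split between copies. KRT7, the other biliary keratin, had 39.1 and 90.1, against 1.46 and 4.77 in the control clones, so this defining marker of bile duct cells was near 0 in the control clones of this bile duct tumour line. Of the 15 cholangiocyte genes tested (22 listed), 2 were higher and 0 lower by the 4-fold rule in both clones. Both were keratins, KRT7 and KRT19. This list's medians were 2.02 in clone 1 and 3.79 in clone 2. Its members KRT7, TFF1 and TFF3 passed the filter through the PRH shRNA clones alone.

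Regulators of the foregut endoderm and growth factor genes were also among the higher genes. Of all genes tested, 2.54% were higher and 0.544% lower in both clones by the 4-fold rule, and 12.3% lay higher and 11.7% lower without overlap. Of 17 liver and endoderm factors, 3 were higher and 1 (NR5A2) lower in both clones, and 8 lay higher and 2 lower without overlap. GATA6 had 179 and 795 normalised counts, against 16.8 and 19.1 in the control clones, and PDX1, the pancreatic and duodenal homeobox factor, had 101.3 and 414, against 15.4 and 7.63 in the control clones. TBX3, a T-box factor, had 611 and 2987, against 134 and 111 in the control clones. All 3 had their highest value in clone 2. HNF4A, the main hepatocyte nuclear receptor, had 83.9 and 480.2, against 20.5 and 13.4 in the control clones, and its clone 1 value lay just under the 4-fold gap. Of 17 EGF-family genes, 3 were higher and 0 lower, and 6 lay higher and 1 lower without overlap. Among the higher ones, TGFA had 444 and 1910, against 86.3 and 47.7 in the control clones, and EREG had 2218 and 2534, against 462 and 159. TGFA and EREG encode ligands of the EGF receptor, and EREG had nearly the same level in both PRH shRNA clones. Of 26 interferon-stimulated genes, 4 were higher and 0 lower in both clones, and 15 lay higher and 2 lower without overlap. SAMD9 had 456 and 1087, against 48.3 and 11.5 in the control clones, and IFITM3, a membrane protein that blocks virus entry, had 485 and 5412, against 117 and 112. IFIH1, a sensor of viral RNA, ran the other way, with 2568 and 1441, against 11221 and 4345 in the control clones.

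**Figure D1:**
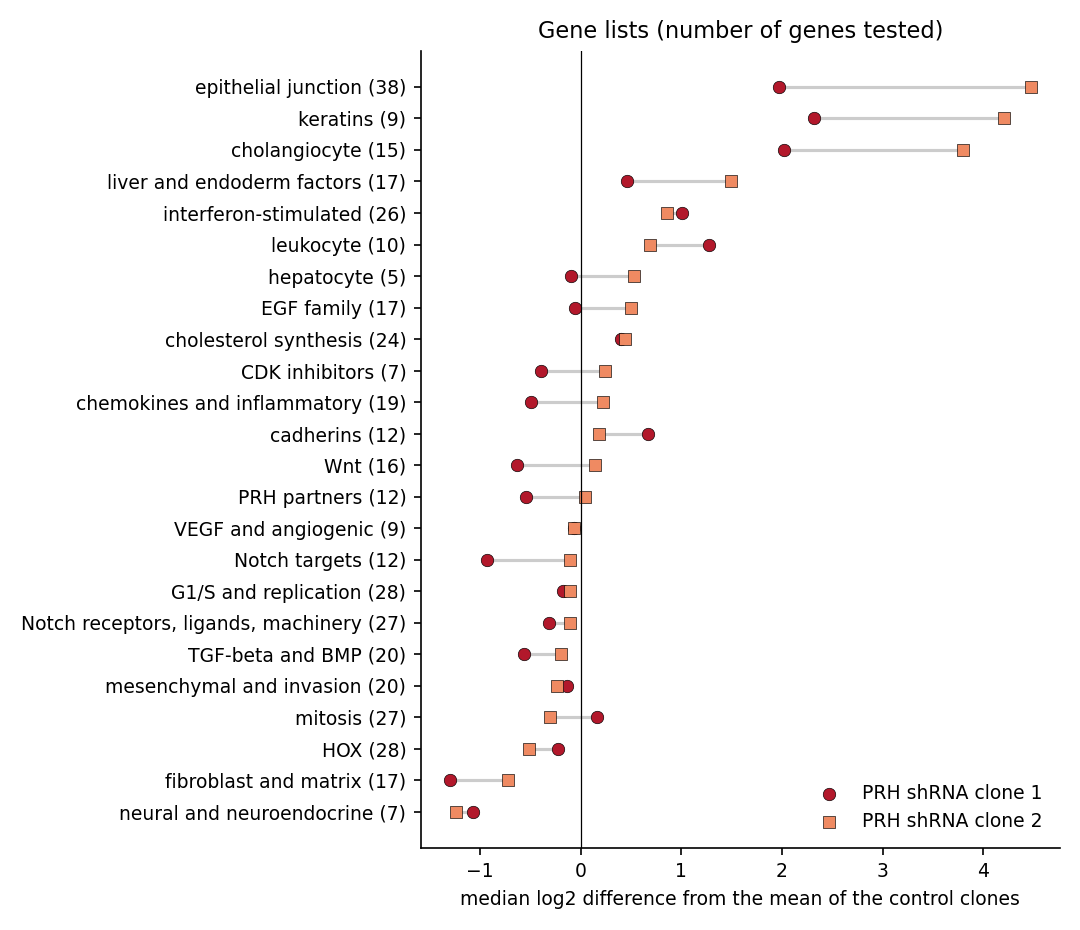
Median log2 difference from the mean of the control clones (x axis) for gene lists with at least 5 genes tested, whose number stands in brackets. Red circles are PRH shRNA clone 1 and orange squares clone 2, and the same control clones enter both. Epithelial junction genes (1.97 in clone 1, 4.47 in clone 2), keratins and cholangiocyte genes lie to the right, and fibroblast and matrix genes (-1.30 and -0.72) to the left.

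Mesenchymal genes went in both directions. For comparison, 12.3% of all genes tested lay higher and 11.7% lower without overlap, and 2.54% were higher and 0.544% lower by the 4-fold rule. Of 20 mesenchymal and invasion genes tested, 1 was higher and 1 (CDH2) lower in both clones, 1 lay higher and 6 lower without overlap, with medians of -0.14 in clone 1 and -0.23 in clone 2. The higher one was WNT5A, a non-canonical Wnt ligand, with 76.7 and 266, against 10.97 and 3.82 in the control clones. MMP1, an interstitial collagenase, had 233 and 219, against 1184 and 655 in the control clones. ZEB2, a repressor of epithelial genes, had 7209 and 3372, against 8443 and 8233 in the control clones, so it remained abundant in both PRH shRNA clones. Of 17 fibroblast and matrix genes, 0 were higher and 2 (POSTN and DCN) lower, with medians of -1.30 and -0.72.

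Notch genes were mostly not set apart. Over all genes tested, 12.3% lay higher and 11.7% lower without overlap, and 2.54% were higher and 0.544% lower by the 4-fold rule. Of 27 receptors, ligands and machinery genes, 0 were higher and 0 lower in both clones, 1 lay higher and 4 lower without overlap, and the medians were -0.32 in clone 1 and -0.11 in clone 2. JAG1, a Notch ligand, had 773 and 3982 normalised counts in PRH shRNA clones 1 and 2, against 761 and 992 in the control clones, so it was high in clone 2 while clone 1 lay between the control clones. Of 12 Notch targets, 0 were higher and 2 (HEY2 and DTX1) lower, 0 lay higher and 4 lower without overlap, with medians of -0.93 and -0.10. DTX1, a Deltex regulator of Notch, had 0 and 4.95, against 28.5 and 109.7 in the control clones. HES1, the classical Notch target, had 247 and 1252, against 307 and 321 in the control clones, so its 2 PRH shRNA clones lay on either side of the controls.

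Cell cycle genes had medians close to the controls. Without overlap, 1 of 28 G1/S and replication genes lay higher and 6 lower. Of 27 mitosis genes 1 lay higher and 2 lower, against 12.3% and 11.7% of all genes tested. By the 4-fold rule, 0 of 27 mitosis genes were higher and 0 lower in both clones (medians 0.16 in clone 1 and -0.30 in clone 2). The same held for 7 CDK inhibitors (medians -0.39 and 0.24). Of 28 G1/S and replication genes, 0 were higher and 1, CCND2, was lower (medians -0.18 and -0.11). Several of these genes differed by clone number in both groups: CDK1, the mitotic kinase, had 12909 and 4698 in PRH shRNA clones 1 and 2, against 13542 and 6375 in control clones 1 and 2, and UBE2C, a ubiquitin-conjugating enzyme of mitotic exit, had 2445 and 6560, against 2522 and 9040. STARD4, a sterol carrier, had 60446 and 12279, against 60788 and 17407. For these 3 genes the clones with the same number were alike across the shRNAs. What the clone numbers share is not given in the labels, and its part in the difference between the clones was not tested. By the 4-fold rule, 2.54% of all genes tested were higher and 0.544% lower in both clones. Of the remaining lists, 28 HOX genes had 0 higher and 1 (HOXC10) lower in both clones, and 12 cadherins had 3 higher and 2 lower. The 16 Wnt readout genes had 1 (RNF43) higher and 1 (SP5) lower, and 20 TGF-beta and BMP genes had 1 (TGFBI) higher and 1 (BMP7) lower. Of 3 mesothelial genes 0 were higher and 1 (CALB2) lower, and 0 were set apart in both clones among 9 angiogenic, 5 hepatocyte and 4 endothelial genes. Of 12 PRH partner genes, including the TLE co-repressors, 0 were higher and 0 lower, and TLE4 had 700.2 and 1287, against 281 and 287 in the control clones.

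Taken one at a time against the same 2 control clones, the PRH shRNA clones gave different sets of called genes. In this 3-group limma fit the spread comes from the control pair (1 residual degree of freedom) together with the trend over all genes, and a lone clone is assumed to vary like the control clones. Clone 1 had 218 called genes (1.5% of those tested), 100 higher (0.689%) and 118 lower (0.813%). Clone 2 had 807 (5.56%), 717 higher (4.94%) and 90 lower (0.62%). A direct comparison of clone 2 with clone 1 called 39 genes (0.269%), 19 higher (0.131%) and 20 lower (0.138%) in clone 2, with 1 library in each arm and the spread of the control pair. These counts rest on the filter: with genes of low counts left in, each of the 3 comparisons called 0 genes (1315, 1897 and 1506 at an unadjusted p below 0.05). Of the 38 epithelial genes, 3 were called higher in clone 1 and 27 in clone 2, and 0 were called between the clones.

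**Figure D2:**
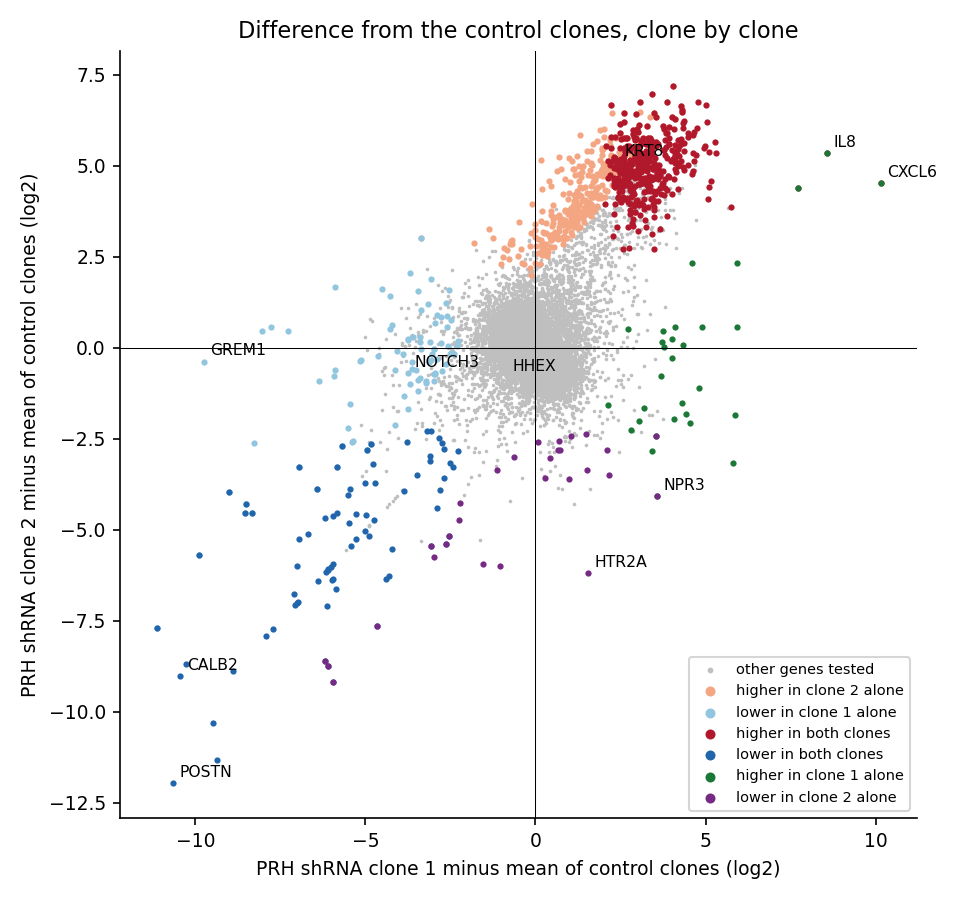
Log2 difference from the mean of the control clones for each of the 14511 genes tested, PRH shRNA clone 1 on the x axis and clone 2 on the y axis. Colours mark genes set apart by at least 4-fold. Where sets overlap, the both-clones colours cover those of genes higher in clone 2 alone or lower in clone 1 alone. The colours of genes higher in clone 1 alone or lower in clone 2 alone lie on top. Since both axes share the control clones, they are not independent. Higher genes lie mostly above the diagonal (clone 2 exceeded clone 1 in 356 of 368), GREM1 lies far left and HTR2A far below.

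PRH shRNA clone 1 alone lay at least 4-fold below each of the other 3 libraries for 88 genes (0.606%). GREM1 (gremlin, a secreted BMP antagonist) had 15.9 normalised counts in clone 1 and 11233 in clone 2, against 14714 and 14518 in the control clones. CYP24A1, which breaks down active vitamin D, had 28.9 and 10697, against 8247 and 7422 in the control clones. For both, clone 2 was at the level of the controls and clone 1 stood apart. Clone 2 minus clone 1 came to 9.38 on the log2 scale for GREM1 and to 8.48 for CYP24A1, each from 1 library per arm. GZMB (granzyme B) had 0 and 322, against 514 and 90.7 in the control clones, and CDK14, a cyclin-dependent kinase of Wnt signalling, had 0 and 211, against 160.2 and 146. SDPR (a caveolar coat protein) had 5.79 and 1266, against 379 and 424 in the control clones, while BMP7, a bone morphogenetic protein, had 0 and 31.7, against 370.15 and 709. BMP7 was thus low in both PRH shRNA clones and lowest in clone 1. HTRA1, a secreted serine protease, had 4.34 and 191, against 245 and 431 in the control clones, and CHRNA4, a nicotinic receptor subunit, had 0 and 42.6, against 42.4 and 156.

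Another 30 genes (0.207%) were higher in PRH shRNA clone 1 alone. Besides the chemokines, these included some genes known from white blood cells. SRGN (serglycin, the granule proteoglycan) had 207 and 0 normalised counts in PRH shRNA clones 1 and 2, against 11.7 and 0 in control clones 1 and 2. LYZ (lysozyme) had 204 and 3.96, against 10.2 and 0. ITGB2, the shared chain of leukocyte integrins, had 188 and 12.9, against 16.8 and 6.68, and PTPRC (CD45) had 217 and 17.8, against 32.2 and 3.82 in the control clones. Clone 1 was highest in all 4, and control clone 1 lay above control clone 2. Named after their values were seen, CD34 had 279 and 3.96, against 68.0 and 1.91 in the control clones, and CD74 had 593 and 8.91, against 117 and 2.86. Over the leukocyte list of 16 genes the summed level was 3442 in PRH shRNA clone 1 and 4086 in clone 2, against 3138 and 4060.3 in the control clones. The median log2 difference of the 10 genes tested was 1.27 in clone 1 and 0.69 in clone 2. Of the list's 16 genes, 3 and 4 were at 0 in the PRH shRNA clones and 3 and 4 in the control clones, with 0 of the 10 tested higher or lower in both clones. List members highest in clone 1 also included LCP1, with 341 and 94.1, against 43.9 and 0 in the control clones. LAPTM5 had 187 and 14.9, against 15.4 and 11.5, and CD53 had 56.4 and 0.99, against 12.4 and 1.91. Other members of the list were higher in clone 2: CD8A had 44.8 and 94.1, against 30.0 and 13.4 in the control clones, and CD14 had 13.0 and 70.3, against 4.39 and 8.59. The part of such cells in the clone 1 values was not tested.

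PRH shRNA clone 2 alone was higher for 426 genes (2.94%), the most of any library, and 138 of these were also among the 368. SECTM1, a secreted and membrane protein of epithelia and myeloid cells, had 15.9 and 545 normalised counts in PRH shRNA clones 1 and 2, against 11.7 and 17.2 in the control clones. DOK7, an adaptor of the muscle receptor MuSK, had 21.7 and 523, against 8.78 and 7.63 in the control clones. ICAM1, the adhesion receptor for leukocyte integrins, had 66.5 and 724, against 48.3 and 44.9 in the control clones. In these genes clone 1 lay far below clone 2, and DOK7 in clone 1 was above both control clones. Clone 2 alone was lower for 29 genes (0.2%). HTR2A, a serotonin receptor, had 1065 and 3.96, against 467 and 281 in the control clones, and CDH11, a mesenchymal cadherin, had 1244 and 50.5, against 561 and 709. Clone 2 minus clone 1 came to -7.75 on the log2 scale for HTR2A and to -4.60 for CDH11. PCDH7, a protocadherin, had 124 and 14.9, against 2156 and 4610.0, and PAGE4, a cancer-testis antigen, had 36.2 and 2.97, against 4020.5 and 1304. These 2 genes were low in both PRH shRNA clones and lowest in clone 2. Opposite directions were seen in 3 genes: GRIA1 and NPR3 were at least 4-fold higher in clone 1 and lower in clone 2 than both control clones (0.0138%), and C15orf48 was the reverse (0.00689%). By comparison, control clone 1 alone was higher for 5 genes (0.0345%) and lower for 17 (0.117%), and control clone 2 alone was higher for 7 (0.0482%) and lower for 139 (0.958%).

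The median of the genes higher in both PRH shRNA clones was higher still in the libraries labelled NOTCH3 shRNA. Levels are given here as RPM, reads scaled to a common library total, because the 3 tables were scaled separately. The median of the 368 genes was 2.67 and 10.0 RPM in PRH shRNA clones 1 and 2 and 0.391 and 0.198 in control clones 1 and 2. It lay between 16.4 and 19.1 in the 4 libraries labelled NOTCH3 shRNA, and between 0.0153 and 0.0892 in the 8 virus libraries without NOTCH3 shRNA. Of 367 of these genes tested in that separate experiment, 357 were called higher in the empty-virus libraries labelled NOTCH3 shRNA than in the control shRNA line (97.3%, against 28.9% of all genes tested there), and 2, CXCL6 and PF4V1, were called lower (23.1% of all genes were, and 51.9% passed in either direction). NOTCH3 mRNA overlapped between the libraries behind this comparison, with 10.9 and 17.6 RPM with the NOTCH3 shRNA and the empty virus, against 11.9 and 14.2 RPM with the control shRNA and the empty virus (log2 difference 0.08, limma, adjusted p = 0.798). With the PRH virus NOTCH3 had 13.4 and 19.6 RPM in the libraries labelled NOTCH3 shRNA, against 41.2 and 45.5 RPM in those with the control shRNA. Between 43 and 67 of the 368 genes were at or below the higher PRH shRNA clone in each library labelled NOTCH3 shRNA. KRT8 had 223 and 1516 RPM in the PRH shRNA clones, 4079.5 and 3679.9 in the empty-virus libraries labelled NOTCH3 shRNA, 40.3 and 39.4 in the control clones, and 3.85 and 5.40 in cells with no shRNA with the empty virus. CDH1 had 40.0 and 228 RPM in the PRH shRNA clones, 759.5 and 632 in the empty-virus libraries labelled NOTCH3 shRNA, 6.93 and 5.76 in the control clones, and 0.529 and 0.758 in cells with no shRNA and the empty virus. The PRH shRNA clones thus lay between the control clones and the libraries labelled NOTCH3 shRNA for both genes.

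**Figure D3:**
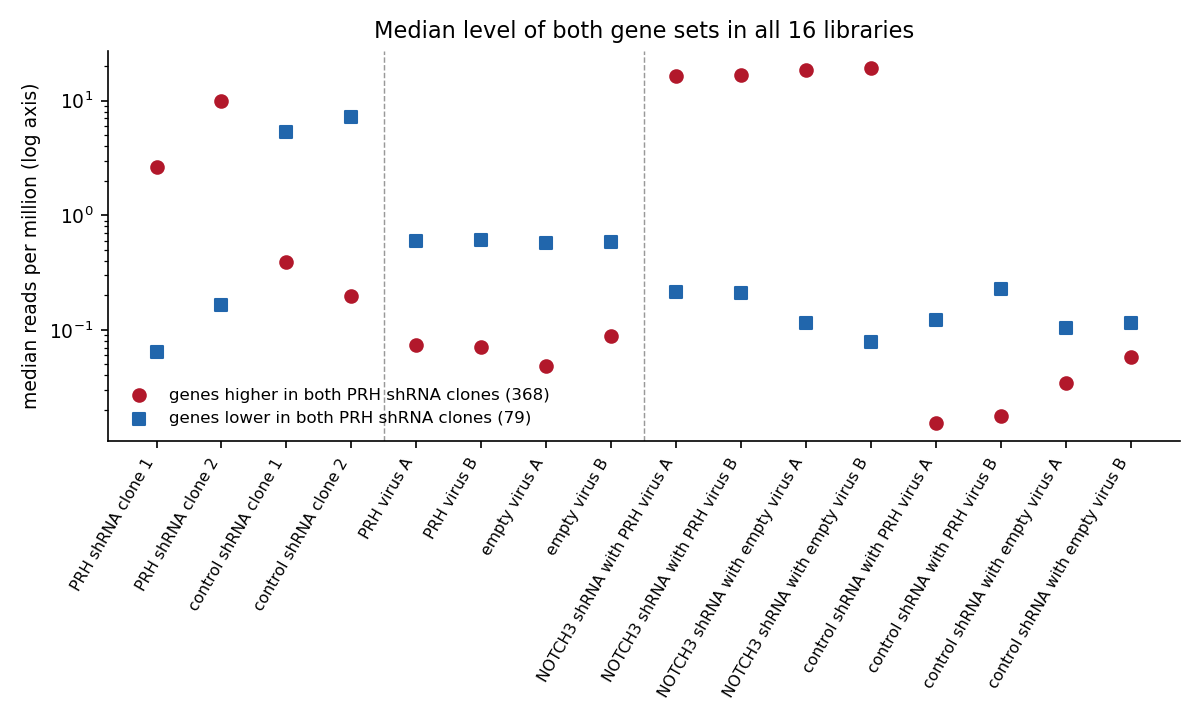
Median RPM (log axis) of the 368 genes higher (red circles) and the 79 genes lower (blue squares) in both PRH shRNA clones, in all 16 libraries, with dashed lines between the 3 experiments. The higher genes reach 16.4 to 19.1 in the 4 libraries labelled NOTCH3 shRNA, and the lower genes stand high in the 2 control clones alone (5.38 and 7.19).

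To describe this without using the clone values, genes were picked on the other libraries: at least 10 RPM in each of the 4 libraries labelled NOTCH3 shRNA and at most 0.1 in each of the 4 empty virus libraries without NOTCH3 shRNA. This choice was made after earlier results were known. It gave 66 genes, of which 46 were among the 368 (background 2.54%) and 35 among the 426 (background 2.94%). Each of the 66 had reads in all 4 clone libraries. Relative to their mean in the libraries labelled NOTCH3 shRNA, the median gene stood at 10.7% in PRH shRNA clone 1 (quartiles 6.76% and 15.2%) and at 47% in clone 2 (31.7% and 58.5%), against 1.76% in control clone 1 (1.21% and 2.66%) and 0.809% in control clone 2 (0.483% and 1.22%). The part of this shared profile in the differences between the clones was not tested.

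**Figure D4:**
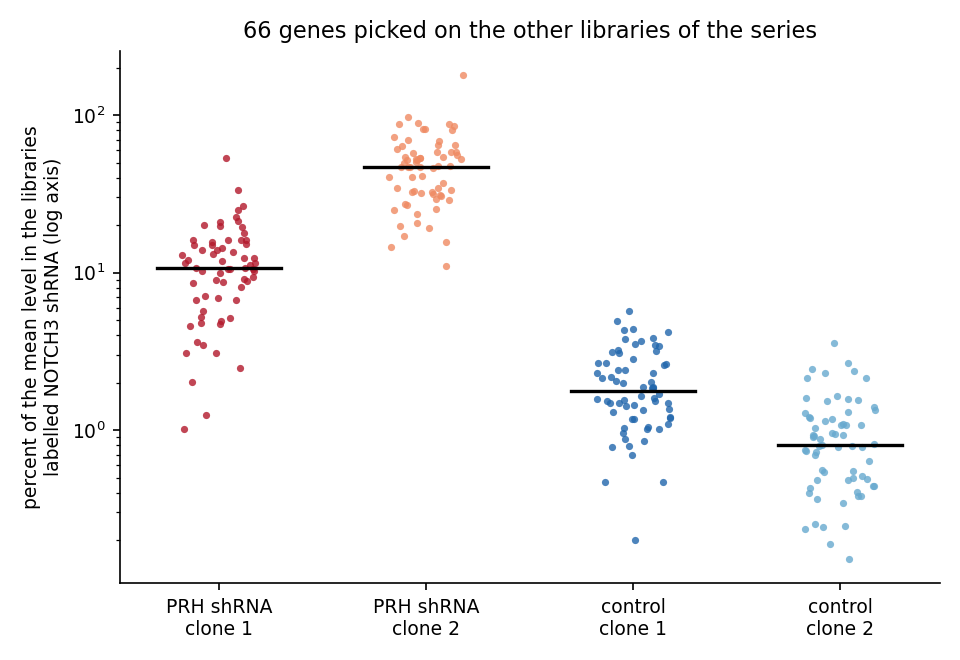
Level of 66 genes in the 4 clone libraries as a percentage of their mean in the 4 libraries labelled NOTCH3 shRNA (log axis); each point is a gene, spread sideways for visibility, and the black line is the median. The medians are 10.7% and 47% in PRH shRNA clones 1 and 2 and 1.76% and 0.809% in control clones 1 and 2.

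The 79 lower genes had another pattern across the series. Their median was 0.0642 and 0.164 RPM in PRH shRNA clones 1 and 2, 5.38 and 7.19 in control clones 1 and 2, and between 0.0788 and 0.606 in the other 12 libraries. In each of those 12 libraries between 72 and 78 of the 79 genes were at or below the higher control clone, and between 4 and 14 reached the lower control clone. POSTN stood at 0.0321 and 0 RPM in the PRH shRNA clones and at 93.0 and 77.0 in the control clones, while cells with no shRNA with the empty virus had 0.481 and 0.312. CDH2 stood at 0.0321 and 1.06 in the PRH shRNA clones and at 57.8 and 43.1 in the control clones, while cells with no shRNA with the empty virus had 0.0481 and 0.0892. For both genes the control clones were the libraries that stood apart from the rest of the series. GREM1 had 0.353 RPM in PRH shRNA clone 1 and 266 in clone 2, against 309 and 316 in the control clones, while cells with no shRNA and the empty virus had 479.6 and 478. The control shRNA line of the virus experiment with the empty virus had 0.343 and 0.826, so a level near that of PRH shRNA clone 1 also occurred in CCLP1 cells without the PRH shRNA.

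Libraries in which PRH was raised by an adenovirus give a separate view of the same genes. HHEX rose with the PRH virus by 7.87 on the log2 scale in cells with no shRNA and by 8.70 in control shRNA cells (limma, adjusted p = 4.4e-05 and 1.75e-07). Of the 79 genes lower in both PRH shRNA clones, 48 were tested in cells with no shRNA, of which 6 rose and 6 fell with the PRH virus (12.5% each, against 9.9% and 5.73% of all genes). In control shRNA cells 10 of 51 rose (19.6%, against 15.2% of all genes) and 6 fell (11.8%, against 11.8%). HOXC10 rose in both (1.28, adjusted p = 0.0304, and 2.21, adjusted p = 0.00919), and FMN2 fell in both (-1.34, adjusted p = 0.00993, and -2.06, adjusted p = 3.13e-05). Of the 368 higher genes, 30 of 367 rose and 37 fell in control shRNA cells (8.17% and 10.1%, against 15.2% and 11.8% of all genes). The filter took all libraries of that experiment together, including those labelled NOTCH3 shRNA. In the control shRNA libraries the median of the 368 genes was 0.0153 to 0.0576 RPM, with 147 to 177 at 0 per library. These shares are thus mostly of genes near absent in both arms. In cells with no shRNA 79 of the 368 were tested. Of these 2 rose and 1 fell (2.53% and 1.27%, against 9.9% and 5.73% of all genes). Of the genes lower in PRH shRNA clone 1 alone, 19 of 77 rose and 5 fell in cells with no shRNA. These shares were 24.7% and 6.49%, against 9.9% and 5.73% of all genes. In control shRNA cells 35 of 86 rose and 3 fell (40.7% and 3.49%, against 15.2% and 11.8% of all genes). No test of these shares against all genes was made. Among them, CHRNA4 rose by 3.07 and 3.24 (adjusted p = 0.00379 and 0.0163), and IL32, which had 2.89 and 55.4 normalised counts in the PRH shRNA clones against 14.6 and 36.3 in the control clones, rose by 3.69 and 4.61 (adjusted p = 0.00372 and 0.000612). GREM1 fell in cells with no shRNA (-0.53, adjusted p = 0.0257). Of the genes higher in clone 2 alone, 39 of 184 rose and 5 fell in cells with no shRNA (21.2% and 2.72%). In control shRNA cells 110 of 424 rose and 31 fell (25.9% and 7.31%). There too the filter took in the libraries labelled NOTCH3 shRNA. In the control shRNA libraries the median of the 426 genes was 0.103 to 0.212 RPM. The shares of all genes were 9.9% and 5.73% in cells with no shRNA, and 15.2% and 11.8% in control shRNA cells.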

How the data were processed

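Polyadenylated RNA of 16 CCLP1 libraries was sequenced, and the 4 libraries of the PRH shRNA experiment are the subject. Per the submitters' processing notes, the authors used Trim Galore, TopHat, featureCounts and DESeq2 with the hg19 build, with no version, setting or strand use stated in the sources used here. What the authors deposited is a signal per gene, counts scaled by a size factor for each library, and dividing by the smallest step gave whole reads for 100% of values (tolerance 1e-06). Of 23368 lines, 28 with a date in place of a symbol were left out.

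The test was limma 3.58.1 under R 4.3.3, fitted to log2(value + 1) with a mean-variance trend, after a filter of 10 normalised counts in 2 libraries, with Benjamini-Hochberg adjustment over all genes and a threshold of 0.05. A log2 fold change on this scale understates the change of low genes. edgeR 4.0.16 and DESeq2 1.42.0 were run on recovered reads as alternatives. The fits were tested on simulated data. Tables were scaled separately, so tests stay within a table and levels across tables are reads scaled to a common total (RPM). The control column of the parental virus experiment is named after GFP, while the labels call that virus empty. Columns of both virus experiments carry no replicate number and were called A and B here. Symbols are those of the files. RefSeq promoter windows are from another build than hg19, so positions of different builds were not combined.

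Libraries were grouped by the labels' shRNA target. Members, lists and rules were chosen with earlier results of these data known. Named genes are HHEX, NOTCH3, the 3 smallest p-values, the 12 largest gaps per direction between both PRH shRNA and both control clones, the 10 per direction for each PRH shRNA clone alone, the 4 per direction for each control clone alone and for opposite directions, and up to 4 members per direction and 3 between clones from each of 26 lists. CD34 and CD74 were named outside this rule, and some results are not reported here.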

Additional observations from a re-analysis of the deposited data

Results flagged for a closer look

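For 3 genes the PRH shRNA clones lay at least 4-fold away from both control clones in opposite directions. GRIA1, a glutamate receptor subunit, had 1671 normalised counts in PRH shRNA clone 1 and 25.7 in clone 2, against 166 and 123 in the control clones, a difference of -5.97 on the log2 scale for clone 2 minus clone 1. NPR3, a natriuretic peptide clearance receptor, had 199.65 and 0, against 31.5 and 7.63, a difference of -7.65. C15orf48, a small mitochondrial protein, had 0 and 82.2, against 8.05 and 10.5, a difference of 6.38. Each direction rests on 1 library, so the fit of clone 2 against clone 1 took its spread from the control pair and the trend over all genes. With groups of 2, single outlying libraries were not sought by a gap test.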

How the results depend on the processing

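For both clones against the control clones limma gave 0 under another pseudocount, other filters, no trend and rescaled totals, edgeR gave 0, and DESeq2 gave 703. Leaving out 1 library gave 51 to 607 calls (607 and 161 when PRH shRNA clone 1 or 2 was dropped, 372 and 51 when control clone 1 or 2 was), under the assumption that the lone clone varies as the pair does. With the clone number as a replicate block 10 genes were called, all lower. What the clone numbers share is not given in the labels, so they were not used as pairs. The clone 1 minus clone 2 differences of the 2 groups correlated across genes at 0.58, and genes are not independent replicates. No paired analysis was possible for the virus comparisons because their columns carry no replicate number. For clone 1 alone the count moved to 0 with no filter, 108 with a filter of 50 and 628 with no trend. For clone 2 alone it moved to 0 and 533 with these filters, and for clone 2 against clone 1 to 0, 23 and 199. Leaving out a control clone was not run for these 3, since no residual degree of freedom is left.

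The PRH virus counts were 2073 in cells with no shRNA and 4282 in control shRNA cells, and moved to 758 and 2730 with no trend and to 1278 to 2140 and 2291 to 2958 when 1 library was left out. The 4-fold counts moved with the gap. At 2-fold they were 675 higher and 139 lower in both clones, 119 and 324 in clone 1 alone, 988 and 164 in clone 2 alone, 64 and 134 in control clone 1 alone, and 173 and 456 in control clone 2 alone. At 8-fold they were 86 higher in both clones, 9 and 34 in clone 1, 93 and 6 in clone 2, 1 and 2 in control clone 1, and 0 and 43 in control clone 2. With a highest library of at least 200 they were 52 lower in both clones, 13 and 49 in clone 1, 15 lower in clone 2, 3 and 5 in control clone 1, and 3 and 62 in control clone 2. With a pseudocount of 5 they were 56 lower in clone 1, 14 lower in clone 2, 3 lower in control clone 1, and 4 higher and 38 lower in control clone 2. Leaving out 1 library gave 281 to 655 higher (655 when PRH shRNA clone 1 was dropped, 578 when control clone 1 was) and 54 to 185 lower genes in both clones (185 when PRH shRNA clone 2 was dropped). The cause of these shifts was not tested. Of 1003 alternative values for 157 named genes, 0 changed direction, 811 kept their side of the threshold and 192 passed it. The depth, 31136366 to 65190592 reads, leaves genes near 0 open to counting error.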
